A study of Mus musculus with 12 samples.

Results

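The genes described here are 10 complement components and receptors measured by bulk RNA sequencing in M2-like bone marrow-derived macrophages (BMDM) of C57BL/6J mice. They were chosen by name as the C1q subunits C1qa, C1qb and C1qc, the convertase components C2 and C4b, the alternative pathway genes Cfb and Cfp, the central component C3, and the anaphylatoxin receptors C3ar1 and C5ar1. Earlier results of these data were known when the list was drawn up. All 10 were found among the 56748 genes counted, and all 10 were among the 15033 genes that passed the filter on low counts. BMDM are macrophages grown from bone marrow cells, here with M-CSF at 20 ng/mL, and every library came from cells that had then been given IL4 at 10 ng/mL for 48 hours. The cells were kept for a further 72 hours under 1 of 4 conditions with 3 libraries each. Control cells received unsupplemented medium. The eGFP supernatant came from YUMM5.2 eGFP cells, a mouse melanoma line without the Ifnb1 transgene, and the Ifnb1eGFP supernatant from YUMM5.2 cells that carry a Dox-inducible construct of Ifnb1 and eGFP. Donor cells of both supernatants had been treated with Dox at 1 μg/mL for 72 hours. Dilution brought the Ifnb1eGFP supernatant to 1500 pg/mL IFNβ. The same dilution was applied to the eGFP supernatant, and recombinant IFNβ (rIFNβ) was given at the equivalent concentration. The labels do not say whether the 3 libraries of a condition came from separate mice or cultures, so the p-values measure the spread between libraries, which may be technical.

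Complement is a set of mostly secreted proteins that tag particles for uptake and call in leukocytes. C1q recognizes antibody complexes and dying cells and starts the classical pathway, whose C3 convertase is built from C4 and C2. In the alternative pathway the convertase is built from C3 and factor B and is held together by properdin. Cleavage releases the small fragments C3a and C5a, which act on receptors of myeloid cells. The liver makes most of the circulating components, while macrophages make their own, and C1q comes largely from macrophages and dendritic cells.

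Library totals ran from 31526004 to 45348410 counts. The 10 genes together took 0.300% to 0.312% of all counts in the control libraries, 0.349% to 0.379% with eGFP supernatant, 0.577% to 0.707% with Ifnb1eGFP supernatant and 0.599% to 0.660% with rIFNβ. Macrophage markers (Adgre1, Csf1r, Cd68, Fcgr1, Mertk and Lyz2) were all detected, and their summed level lay between 9317 and 16836 CPM (counts scaled to library size with TMM factors), with 12697 to 16836 CPM in the 6 libraries without IFNβ and 9317 to 10184 CPM in the 6 with it. Of these 6 markers 4 rose with IFNβ in both comparisons (Fcgr1 by log2 fold changes of 3.85 and 4.46), Csf1r did not pass the test, and Lyz2 alone fell. Lyz2 was at a mean of 12396 CPM with eGFP supernatant against 4111 CPM with Ifnb1eGFP supernatant, and at 9415 CPM in control against 3472 CPM with rIFNβ. Hepatocyte markers (Alb, Apoa1 and Ttr) summed to between 0 and 0.0251 CPM. Of the 6 neutrophil markers, Ly6g had 0 counts in the libraries of every condition but rIFNβ, where it had 1 to 3, and the list summed to between 4.28 and 5.72 CPM in the 6 libraries without IFNβ and between 0.208 and 0.985 CPM in the 6 with it. The 4 dendritic cell markers summed to between 1.24 and 1.61 CPM without IFNβ and between 0.273 and 0.456 CPM with it. In both lists 1 marker passed the filter on low counts, and it fell with IFNβ in both comparisons. Melanoma markers, which would show carry-over of donor cells, summed to between 0.223 and 0.810 CPM, and IL4-polarized macrophage markers to between 743 and 1023 CPM. Most of the latter sum was Mrc1, with condition means of 660 to 825 CPM. Arg1 had means of only 0.261 to 0.662 CPM, and Ccl24 and Pdcd1lg2 did not pass the filter on low counts. Of the IL4 markers Chil3 rose with IFNβ in both comparisons (log2 fold changes of 0.77 and 0.67), and 0 fell. T cell markers summed to at most 0.0652 CPM and B cell markers to at most 0.328 CPM. The 4 fibroblast markers summed to between 29.6 and 80.8 CPM, with overlap between libraries with and without IFNβ. Of these, Dcn rose in both comparisons (log2 fold changes of 1.80 and 1.35), Col1a1 fell in both (-1.03 and -1.08) and Col3a1 fell with rIFNβ (-0.95). The part of these cells in the results was not tested. In bulk RNA, fewer cells of a type and less RNA per cell cannot be told apart. Library 2 of eGFP supernatant stood apart: 8 interferon-stimulated genes (among them Isg15 and Ifit1) summed to 654 CPM there, to between 65.4 and 132 CPM in the other 5 libraries without IFNβ, and to between 9037 and 10132 CPM in the 6 with IFNβ. Among the 6 libraries without IFNβ it was also the highest for C1qa, C1qb, C1qc, Cfp, C3ar1 and C5ar1. Some of the edgeR values that rest on it are also given without it, and the calls by DESeq2 were not repeated without it. Between Ifnb1eGFP and eGFP supernatant, fits that left out any 1 library gave log2 fold changes of 0.79 to 1.04 for C1qb and 0.66 to 0.96 for Cfp. They gave 0.79 to 0.90 for C3ar1 and 0.14 to 0.28 for C5ar1.

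All 10 complement genes were higher where IFNβ was present, whether it came with tumor cell supernatant or as recombinant protein. At an adjusted p of at most 0.05 (edgeR's quasi-likelihood test, Benjamini-Hochberg over the 15033 genes), 10 of 10 rose with Ifnb1eGFP supernatant against eGFP supernatant, where 30.1% of all genes tested rose. With rIFNβ against control 10 of 10 rose as well, where 30.7% of all genes did. These comparisons share no library. Since the list was drawn up with earlier results of these data known, the contrast with all genes is a description and no test. The median log2 fold change of the 10 was 0.93 and 1.36, beside 0.03 and 0.04 over all genes tested. With the stricter rule of the study's methods, which asks for a log2 fold change of 2 or more in size and an adjusted p no higher than 0.01, 3 of the 10 were called in each comparison. These were C2, C4b and Cfb, where 2.77% and 2.99% of all genes rose that far. C2 and C4b passed the filter on low counts only through the conditions with IFNβ. A rise of these 2 genes was thus built into their being tested, and their calls add no support. The 3 libraries with IFNβ lay above the 3 without it for 9 of 10 genes in the supernatant comparison, all but C5ar1, and for 10 of 10 with rIFNβ, beside 32.4% and 36.4% of all genes. Fits that left out any 1 library gave 9 to 10 calls in the supernatant comparison, and C5ar1 lost its call in 4 of the 6 fits. Without library 2 of eGFP supernatant 10 of 10 rose. That library was high among those without IFNβ for many of these genes, so leaving it out favored a rise.

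**Figure D1:**
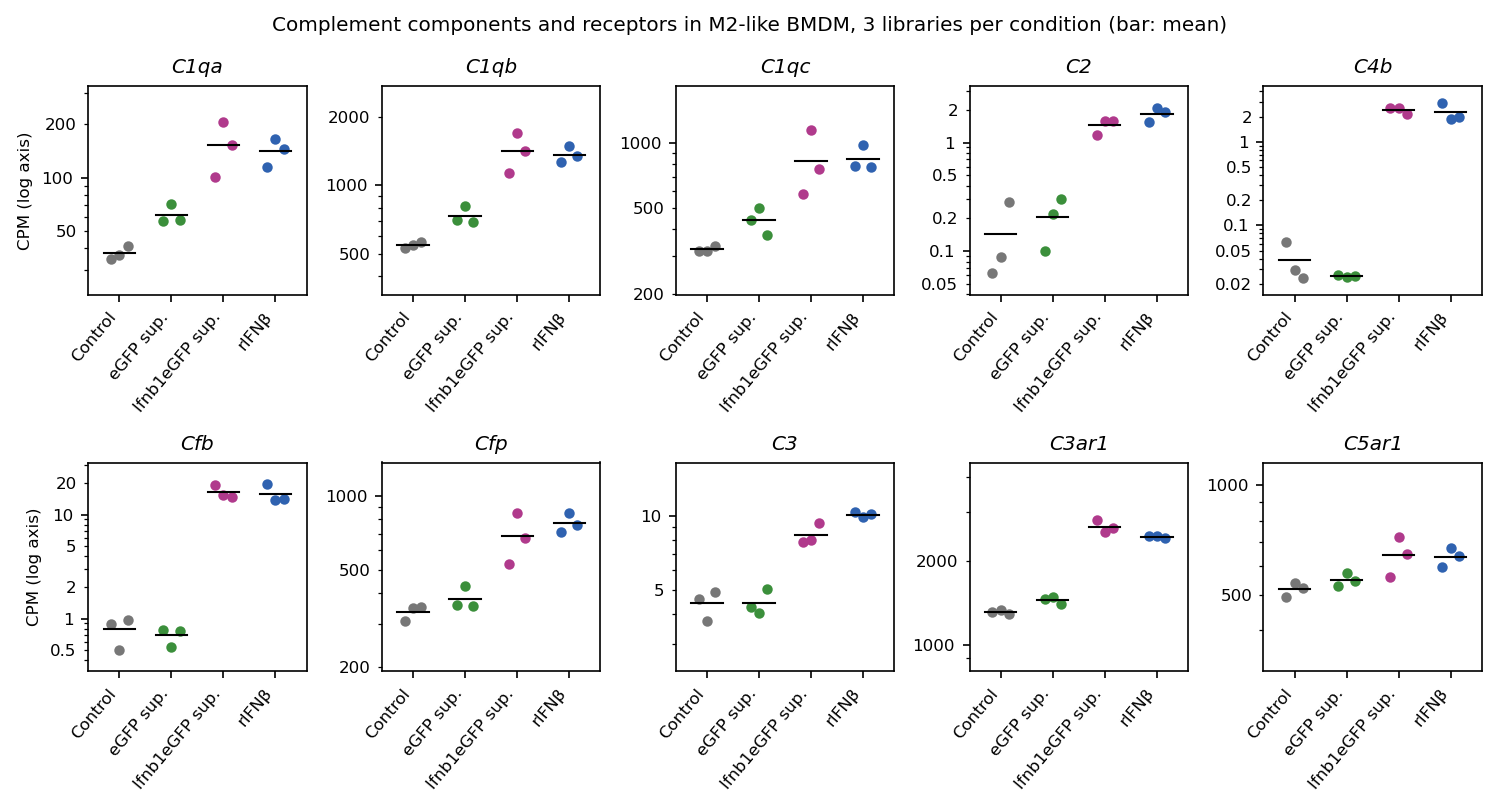
CPM of the 10 complement genes on log axes, with 1 panel per gene, 1 point per library, a bar at the mean of each condition, and libraries in the order of their replicate number. C4b and Cfb show the widest gap between libraries without and with IFNβ, while C5ar1 libraries of eGFP and Ifnb1eGFP supernatant overlap.

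C1qa, C1qb and C1qc encode the A, B and C chains of C1q, the recognition molecule of the classical pathway. Their genes lie side by side on the minus strand of chromosome 4 (GRCm39), with C1qb at 136606009 to 136613511, C1qc at 136616466 to 136620376 and C1qa at 136623223 to 136626161. The gaps between them were 2954 and 2846 bases, and the canonical transcript of each has 3 exons. C1qa was at 34.7, 36.3 and 41.1 CPM in the control libraries and at 56.3, 71.1 and 57.2 CPM with eGFP supernatant. With Ifnb1eGFP supernatant it was at 100.6, 206 and 153 CPM, and with rIFNβ at 115, 165 and 144 CPM. Every library with IFNβ was above every library without it, and every library with eGFP supernatant was above every control library. The log2 fold change of C1qa was 1.32 ± 0.22 (SE, adjusted p = 0.000366 by edgeR's quasi-likelihood test) with Ifnb1eGFP against eGFP supernatant and 1.92 ± 0.23 (adjusted p = 2.2e-05) with rIFNβ against control. Without library 2 of eGFP supernatant the former value was 1.43.

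C1qb was the most abundant of the subunit genes in counts, at 530, 550 and 565 CPM in control and 702, 814 and 692 CPM with eGFP supernatant. It was at 1131, 1707 and 1415 CPM with Ifnb1eGFP supernatant and at 1268, 1485 and 1348 CPM with rIFNβ. C1qb rose by a log2 fold change of 0.95 ± 0.13 (SE) in the supernatant comparison and 1.32 ± 0.13 with rIFNβ. C1qc was at 317, 316 and 332 CPM in control, 440, 503 and 376 CPM with eGFP supernatant. The Ifnb1eGFP libraries had 578, 1155 and 761 CPM and the rIFNβ libraries 786, 983 and 780 CPM. Its log2 fold changes were 0.92 ± 0.21 (SE, adjusted p = 0.00272, edgeR) and 1.40 ± 0.21 (adjusted p = 0.00014). Among the Ifnb1eGFP libraries, library 1 was lowest and library 2 highest for all 3 subunits. Library 2 was also the highest for all 3 with eGFP supernatant and with rIFNβ. Leaving out any 1 library kept the log2 fold change of C1qc between 0.61 and 1.08 in the supernatant comparison, and C1qc passed the test each time.

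The promoters of C1qb and C1qc, neighboring genes for which no difference in rise was detected, are shown as the 250 bases before each start (RefSeq, GRCm38.p6, minus strand, written 5′ to 3′). They lie at chr4:136886201-136886450 and chr4:136892915-136893164. Capitals mark the half-site of interferon regulatory factors, AANNGAAA, at -108 of C1qc.
C1qb: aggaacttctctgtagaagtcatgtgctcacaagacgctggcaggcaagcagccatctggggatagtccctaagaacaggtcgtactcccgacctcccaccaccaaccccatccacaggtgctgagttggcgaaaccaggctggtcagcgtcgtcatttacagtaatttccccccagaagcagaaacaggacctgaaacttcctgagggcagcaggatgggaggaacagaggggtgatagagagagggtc
C1qc: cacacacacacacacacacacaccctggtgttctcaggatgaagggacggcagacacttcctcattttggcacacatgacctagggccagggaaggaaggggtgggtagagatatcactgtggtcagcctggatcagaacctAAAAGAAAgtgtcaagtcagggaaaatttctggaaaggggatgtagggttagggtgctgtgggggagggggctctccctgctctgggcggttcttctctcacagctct
Promoters of 300 bases (250 before and 50 after the start) were matched for 6 of the 10 genes, C1qb, C1qc, Cfp, C3, C3ar1 and C5ar1. On either strand, 0 of the 6 held the GAS element TTCNNNGAA, which was found in 8.3% of all 32851 promoters. The half-site AANNGAAA was in 3 of the 6 (C1qc, C3ar1 and C3) and in 23.9% of all promoters. A match is a description of letters, not of a bound site.

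The C1q subunits did not rise in equal measure. The count of C1qa divided by that of C1qb in the same library was 0.0653, 0.0660 and 0.0728 in control, 0.0802, 0.0873 and 0.0827 with eGFP supernatant, 0.0890, 0.121 and 0.108 with Ifnb1eGFP supernatant, and 0.0909, 0.111 and 0.107 with rIFNβ. All 6 libraries with IFNβ were above all 6 without it. The difference between IFNβ and no IFNβ, averaged over both backgrounds, was 0.46 on the log2 scale for C1qa to C1qb (p = 0.005, two-sided exact permutation test within background, adjusted p = 0.015 over 6 tests), and 0.005 is the smallest p its 400 relabellings allow. For C1qa to C1qc the difference was also 0.46 with the same exact p of 0.005 and an adjusted p of 0.015. For C1qb to C1qc it was -0.01 (exact permutation p = 0.92), and this ratio lay between 1.48 and 1.95 in all 12 libraries. C1qa thus rose more than C1qb and C1qc in these libraries, while a difference between C1qb and C1qc was not detected. The relabellings took the libraries of a background as exchangeable. The C1qa to C1qc ratio, however, increased from library 1 to library 3 in every condition, so these exact p-values do not account for the replicate number. The difference made by supernatant was 0.16 for C1qa to C1qb (exact p = 0.115), 0.21 for C1qa to C1qc (exact p = 0.03, adjusted p = 0.06) and 0.05 for C1qb to C1qc (exact p = 0.51), and none passed the adjusted threshold. Without library 2 of eGFP supernatant the differences with IFNβ were 0.48, 0.46 and -0.02 and those with supernatant 0.15, 0.21 and 0.06, in the same order of ratios, and were not tested.

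**Figure D2:**
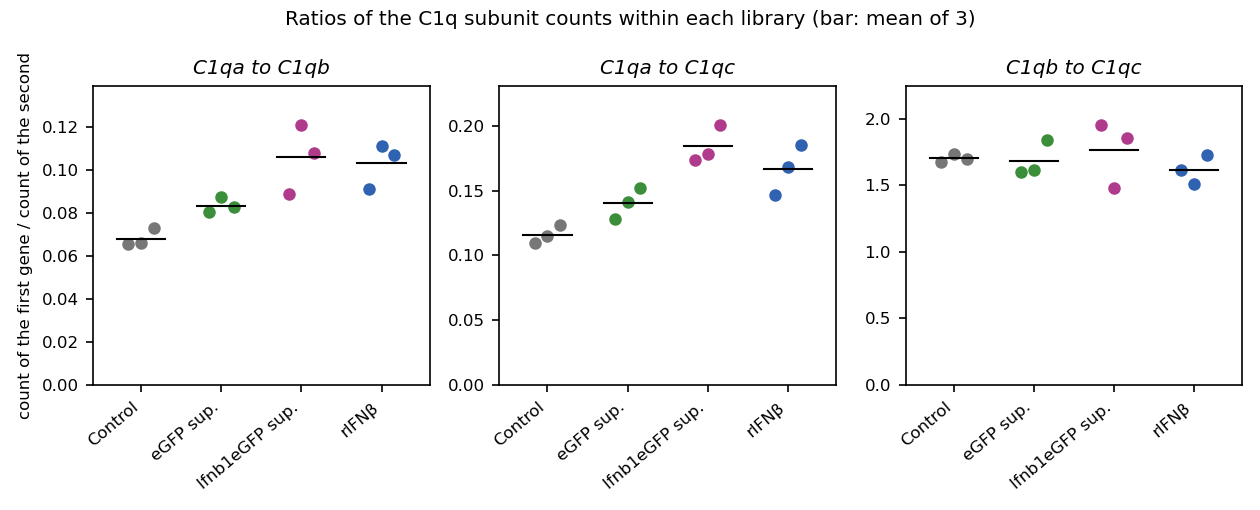
Ratios of C1q subunit counts within each library, with 1 point per library and a bar at the mean of 3. C1qa rises from 0.0653 to 0.0873 of C1qb without IFNβ to 0.0890 to 0.121 with it, and C1qb to C1qc stays between 1.48 and 1.95.

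C4b and C2 encode the components that C1 cleaves to build the classical C3 convertase. C4b was close to absent without IFNβ, with 2, 1 and 1 counts in control and 1 count in each library with eGFP supernatant. It had 100, 101 and 99 counts with Ifnb1eGFP supernatant and 98, 83 and 78 counts with rIFNβ, that is 2.15 to 2.53 and 1.87 to 2.91 CPM. The ratio of pooled counts, scaled for depth, was 95.7 (95% exact counting interval 32.4 to 467) for Ifnb1eGFP against eGFP supernatant and 59.3 (22.9 to 219) for rIFNβ against control. These intervals cover counting error alone. C4b lies on chromosome 17 (GRCm39, 34947354 to 34962912, minus strand), and 34.8% of the 50-base words of its canonical transcript are also found in its near-identical paralog C4a. C4a was at 0.83 ± 0.04 CPM (SD, n = 3) in control, 0.740 ± 0.103 with eGFP supernatant, 0.418 ± 0.150 with Ifnb1eGFP supernatant and 0.571 ± 0.058 with rIFNβ. It fell by 0.81 on the log2 scale in the supernatant comparison (adjusted p = 0.0189, edgeR), while the value with rIFNβ was -0.54 (adjusted p = 0.0895). How the counting shared reads between the paralogs is uncertain. With the counts of C4a added to those of C4b, C4b had 27 to 38 counts in each library without IFNβ and 103 to 123 with it. The log2 fold changes were then 1.88 ± 0.17 (SE, adjusted p = 2.81e-06, edgeR) and 1.69 ± 0.17 (adjusted p = 6.42e-06), under the study's limit of 2.

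C2 had 2, 3 and 12 counts in control, 4, 9 and 12 with eGFP supernatant, 46, 63 and 73 with Ifnb1eGFP supernatant and 52, 92 and 75 with rIFNβ. All libraries with IFNβ were above all without it. The ratio of pooled counts was 6.97 (95% exact counting interval 4.57 to 11.1) in the supernatant comparison and 11.8 (7.2 to 20.6) with rIFNβ, and the fitted log2 fold changes were 2.78 ± 0.40 (SE) and 3.55 ± 0.42. Control library 3 decided much of the latter value, which was 4.54 without it. Cfb, which encodes factor B, the protease of the alternative convertase, lies 18 bases from C2 on the minus strand of chromosome 17 (GRCm39, Cfb at 35074852 to 35081559 and C2 at 35081578 to 35117241). Cfb was at 0.890, 0.498 and 0.970 CPM in control and 0.783, 0.536 and 0.753 CPM with eGFP supernatant. It was at 19.4, 15.3 and 14.6 CPM with Ifnb1eGFP supernatant and at 19.8, 13.7 and 14.0 CPM with rIFNβ. The log2 fold changes of Cfb were 4.57 ± 0.24 (SE, adjusted p = 3.02e-08, edgeR) and 4.31 ± 0.24 (adjusted p = 3.94e-08), or 23.8-fold and 19.9-fold. Gm20547, a protein-coding annotation that overlaps both genes on their strand, shares 57.6% of the 50-base words of C2 and 65.3% of those of Cfb. It had 0 to 20 counts in a library without IFNβ and 23 to 94 with it, and rose by log2 fold changes of 2.24 and 2.41. With its counts added, the log2 fold changes were 4.15 ± 0.18 and 4.05 ± 0.18 for Cfb and 2.48 ± 0.29 and 2.99 ± 0.31 for C2. Cfb also shares 33.7% of its words with Nelfe, an overlapping gene of the opposite strand, and no source used here states the strand setting of the counting.

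Cfp encodes properdin, which holds the alternative convertase together and lies on chromosome X (GRCm39, 20791688 to 20797794, minus strand). It was already abundant without IFNβ, at 308, 350 and 352 CPM in control and 358, 427 and 356 CPM with eGFP supernatant. It was at 529, 852 and 674 CPM with Ifnb1eGFP supernatant and at 714, 853 and 760 CPM with rIFNβ. The log2 fold changes of Cfp were 0.85 ± 0.15 (SE, adjusted p = 0.000465, edgeR) and 1.20 ± 0.15 (adjusted p = 3.13e-05). C3, on which all pathways converge (chromosome 17, GRCm39, 57510964 to 57535155, minus strand), was at low levels throughout. It was at 4.58, 3.72 and 4.90 CPM in control, 4.24, 4.02 and 5.04 CPM with eGFP supernatant. The Ifnb1eGFP libraries had 7.81, 8.0 and 9.38 CPM and the rIFNβ libraries 10.4, 9.90 and 10.2 CPM. C3 rose by log2 fold changes of 0.92 ± 0.12 (SE) and 1.20 ± 0.12, and its groups did not overlap.

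C3ar1 and C5ar1 encode the receptors of C3a and C5a. C3ar1 (chromosome 6, GRCm39, 122823393 to 122833122, minus strand) was at 1313, 1340 and 1291 CPM in control and 1462, 1485 and 1404 CPM with eGFP supernatant. It was at 2807, 2530 and 2619 CPM with Ifnb1eGFP supernatant and at 2464, 2445 and 2418 CPM with rIFNβ. The libraries of each condition lay close together, and the conditions with IFNβ were clear of those without it. The log2 fold changes were 0.87 ± 0.04 (SE, adjusted p = 2.49e-08, edgeR) and 0.89 ± 0.04 (adjusted p = 1.74e-08). C5ar1 (chromosome 7, GRCm39, 15980668 to 15993465, minus strand) was at 493, 541 and 521 CPM in control, 529, 573 and 545 CPM with eGFP supernatant. The Ifnb1eGFP libraries had 559, 722 and 646 CPM and the rIFNβ libraries 598, 674 and 640 CPM. Library 1 of Ifnb1eGFP supernatant was within the range of the eGFP libraries, of which only library 2 lay above it. C5ar1 rose least of the 10, by log2 fold changes of 0.23 ± 0.08 (SE, adjusted p = 0.0374, edgeR) and 0.30 ± 0.08 (adjusted p = 0.00996). The call in the supernatant comparison was lost with RLE factors (adjusted p = 0.0533), without the filter on low counts (0.052), when the fit held no other condition (0.0962) and in 4 of the 6 fits that left out 1 library, the highest adjusted p being 0.136 without library 2 of Ifnb1eGFP supernatant.

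The 250 bases before the start of C3ar1 (RefSeq, GRCm38.p6, chr6:122856158-122856407, minus strand) are shown because the libraries of this receptor gene lay close together within each condition. Capitals mark the half-site AANNGAAA at -209.
C3ar1: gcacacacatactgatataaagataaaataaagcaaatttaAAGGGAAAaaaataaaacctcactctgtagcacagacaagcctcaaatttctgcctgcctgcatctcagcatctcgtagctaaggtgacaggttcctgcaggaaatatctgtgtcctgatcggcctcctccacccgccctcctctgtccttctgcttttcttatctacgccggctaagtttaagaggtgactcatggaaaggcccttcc

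**Figure D3:**
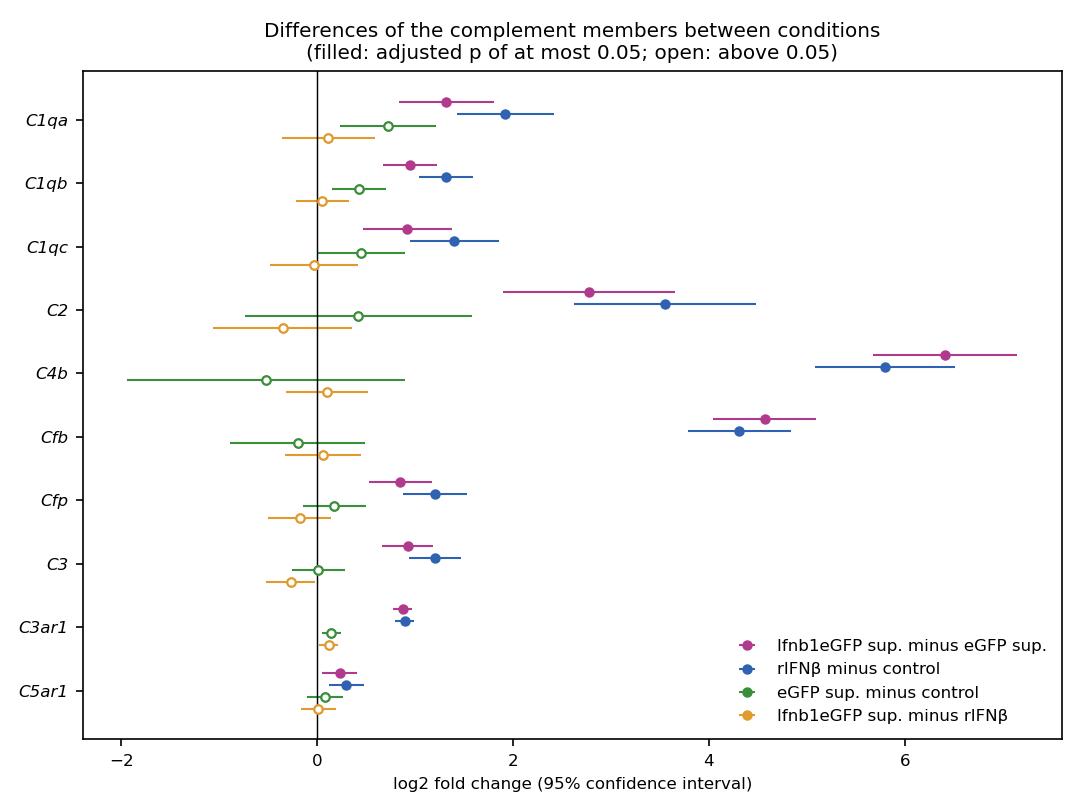
Log2 fold changes of the 10 complement genes in 4 comparisons with 95% confidence intervals (edgeR). Filled points, at an adjusted p of at most 0.05, are those of the comparisons of IFNβ with no IFNβ, from 0.23 to a fitted 6.42 for C4b, and all points of the comparisons of supernatant with no supernatant are open.

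The effect of tumor cell supernatant was read from the same libraries as the comparisons above. Tumor cell supernatant without IFNβ gave smaller differences. With eGFP supernatant against control, 0 of 10 genes passed the test by edgeR, where 0.299% of all genes did, and 3 had an unadjusted p under 0.05, beside 1203 of all 15033 genes. DESeq2 called 2, where it called 1.54% of all genes. The 3 were C1qa with a log2 fold change of 0.72 (95% interval 0.23 to 1.21, adjusted p = 0.329), C1qb with 0.43 (0.15 to 0.70, adjusted p = 0.287) and C3ar1 with 0.14 (0.04 to 0.24, adjusted p = 0.331). DESeq2 called C1qa (adjusted p = 0.0322) and C1qb (adjusted p = 0.0305). The eGFP libraries lay above the control libraries for 5 of 10 genes, C1qa, C1qb, C1qc, Cfp and C3ar1, beside 7.96% of all genes. Without library 2 of eGFP supernatant, the values were 0.60 for C1qa, 0.35 for C1qb and 0.12 for C3ar1, with adjusted p of 0.784, 0.743 and 0.792. C3 differed by 0.01 (95% interval -0.26 to 0.28) and Cfb by -0.20 (-0.89 to 0.49).

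Ifnb1eGFP supernatant was also compared with rIFNβ, which asks what the supernatant held beyond IFNβ. In every comparison of supernatant with no supernatant, Dox left from the donor cells cannot be told apart from what the tumor cells released. Here the source of IFNβ, tumor cells or recombinant protein, differs as well. Here 0 of 10 genes passed the test by edgeR, 2 had an unadjusted p under 0.05 (1288 of all 15033 genes) and DESeq2 called 0, while 0.16% of all genes passed by edgeR. C3 was lower with Ifnb1eGFP supernatant, by a log2 difference of -0.27 (95% interval -0.52 to -0.02, adjusted p = 0.579), and its libraries did not overlap. C3ar1 differed by 0.12 (0.02 to 0.22, adjusted p = 0.55), with the Ifnb1eGFP libraries above all rIFNβ libraries. These were the only members without overlap, beside 8.22% of all genes higher and 4.58% lower. For the other 8 the values ran from -0.35 for C2 to 0.11 for C1qa, and the interval of C1qa, -0.36 to 0.59, left room for differences of either sign. The replicate number was taken as a pairing of these libraries, although the labels do not say what it stands for. With the number as a block 0 of 10 passed as well. Pooled over both states of IFNβ, supernatant gave 0 of 10 calls by edgeR, where 0.905% of all genes passed, and 3 unadjusted p under 0.05, beside 1708 of all 15033 genes. DESeq2 gave 1 call, where it called 2.74% of all genes. C3ar1 was nearest, with a log2 difference of 0.13 ± 0.03 (SE, adjusted p = 0.101, and 0.0111 by DESeq2), and without library 2 of Ifnb1eGFP supernatant its adjusted p was 0.0276. C1qb, at 0.24 ± 0.09 (adjusted p = 0.323), passed without library 1 of Ifnb1eGFP supernatant (adjusted p = 0.0397). Without library 2 of eGFP supernatant the pooled values were 0.36 for C1qa, 0.20 for C1qb and 0.12 for C3ar1, and 0 of 10 passed.

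The rise with IFNβ was not shown to differ between the supernatant and rIFNβ. In the interaction of IFNβ and supernatant, 0 of 10 genes passed by edgeR, 0 had an unadjusted p under 0.05 and DESeq2 called 0, with 0% of all genes called by edgeR. The interaction was positive for only 2 of the 10, and its median was -0.32, beside -0.01 over all genes tested. A shared direction of the 10 was not tested. The smallest unadjusted p was that of C1qb, whose rise was 0.37 smaller on the log2 scale against eGFP supernatant than against control (-0.37, 95% interval -0.76 to 0.01, adjusted p = 0.926). The value of C1qa was -0.61 (-1.29 to 0.08, adjusted p = 0.926), and that of C3ar1 was -0.02 (-0.16 to 0.11). Leaving out 1 library moved the value of C1qa between -0.88 without library 2 of Ifnb1eGFP supernatant and -0.37 without library 1, and that of C1qb between -0.53 and -0.23 without the same libraries. Without library 2 of eGFP supernatant they were -0.49 and -0.29.

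Levels were set side by side between genes per length, as TPM computed from the counts with the length of all annotated exons. In control the order was C3ar1 (1060 ± 17 TPM, SD, n = 3), C5ar1 (815 ± 30.2), Cfp (782 ± 51.9), C1qc (455 ± 13.4), C1qb (355 ± 9.58), C1qa (93.7 ± 8.21), C3 (3.43 ± 0.493), Cfb (0.930 ± 0.303), C2 (0.136 ± 0.113) and C4b (0.0260 ± 0.0147). Among neighbors in this order, only C5ar1 and Cfp overlapped in their libraries. The receptors, properdin and C1q were thus each more than an order of magnitude above C3, factor B, C2 and C4b. With rIFNβ the order began with C3ar1 (2051 ± 23.2 TPM), Cfp (1873 ± 154) and C1qc (1249 ± 155), and the libraries of C3ar1 and Cfp overlapped. Cfb, at 19.5 ± 4.25 TPM, then stood above C3, at 8.24 ± 0.269 TPM, and with Ifnb1eGFP supernatant the values were 20.4 ± 3.6 and 6.87 ± 0.781 TPM. The order at the top depended on the length used. C1qb has 6246 bases of annotated exons and a canonical transcript of 2532 bases, and with canonical transcripts it reached 1326 ± 96.4 TPM with rIFNβ, against 1197 ± 12.2 for C3ar1. In control 7 of 10 genes kept their place with canonical transcripts and 8 of 10 with the longest ones, and C3, Cfb, C2 and C4b kept the last places in both.

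**Figure D4:**
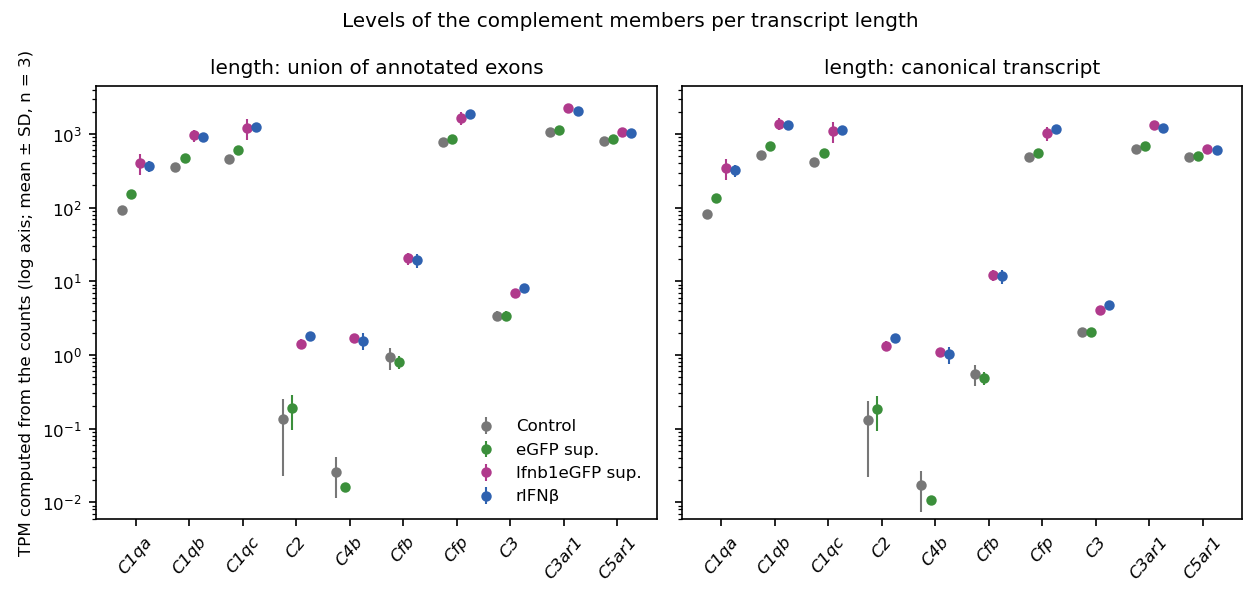
TPM computed from the counts for the 10 genes in each condition (log axis, mean ± SD, n = 3), with the length of all annotated exons on the left and of the canonical transcript on the right. C1q, Cfp, C3ar1 and C5ar1 form the upper band and C2, C4b, Cfb and C3 the lower, and C1qb moves up when the canonical length is used.

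The other genes of the system did not rise as a whole. Of 47 further components, regulators and receptors described here, 22 passed the filter on low counts. In the supernatant comparison 6 of the 22 rose and 9 fell, and with rIFNβ 5 rose and 8 fell, where 30.1% and 30.7% of all genes tested rose and 25% and 24.6% fell. The share of the 22 that rose was thus close to that of all genes. The 6 include Cd59b, which passed the filter only through the conditions with IFNβ. Among 7 components tested of 22 listed, 2 rose in both comparisons. Masp1, a protease of the lectin pathway, was at 0.750 ± 0.298 CPM (SD, n = 3) in control, 0.816 ± 0.247 with eGFP supernatant, 2.92 ± 1.32 with Ifnb1eGFP supernatant and 2.85 ± 0.673 with rIFNβ, with log2 fold changes of 1.84 and 1.89. C1ra, a protease of the C1 complex, rose from 6.62 ± 0.775 to 17.5 ± 0.316 CPM with Ifnb1eGFP supernatant and from 6.14 ± 0.145 to 14.9 ± 1.17 CPM with rIFNβ. Its partner C1s1 had 6 to 23 counts in any library and did not pass the test in either comparison (log2 fold changes -0.29 and 0.62). Colec12, a collectin of the cell surface, fell by 1.55 on the log2 scale in both comparisons, from 92.2 ± 7.21 to 31.5 ± 3.58 CPM in the supernatant comparison. Fcna, ficolin A of the lectin pathway, fell by 1.12 and by 0.92. The terminal components Hc, C6, C7, C8a, C8b and C9 had at most 5 counts in any library. C8g, on the same list, had 38 to 77 counts per library and did not pass the test in either comparison (log2 fold changes 0.06 and 0.16). Cfd, the protease factor D that cleaves factor B, and the lectins Mbl1 and Mbl2 had 0 counts in all 12 libraries, where a count of 0 allows up to 3 counts per library.

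Among 7 regulators tested of the 15 described here, 3 rose in the supernatant comparison and 2 with rIFNβ, beside 30.1% and 30.7% of all genes. Cr1l, the mouse membrane regulator Crry, rose by 0.57 and 0.49 on the log2 scale, and Cd59a, which blocks the membrane attack complex, by 0.40 and 0.44. Cd59b rose by 1.91 in the supernatant comparison (adjusted p = 0.00252, edgeR) at 2 to 28 counts per library, and its value with rIFNβ was 0.70 (adjusted p = 0.169). Like C2 and C4b, Cd59b passed the filter on low counts only through the conditions with IFNβ. A rise was thus built into its being tested, and its call adds no support. Serping1, Cd55, Cd46 and Clu did not pass the test in either comparison.

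Among 8 other receptors tested of 10 listed, 6 fell and 1 rose in each comparison, where 25% and 24.6% of all genes fell and 30.1% and 30.7% rose. Itgax and Itgam encode the alpha chains of complement receptors 4 and 3, and Itgb2 the beta chain they share. Itgax was at 869 ± 9.39 CPM (SD, n = 3) in control and 776 ± 24.0 with eGFP supernatant, against 25.6 ± 2.48 with Ifnb1eGFP supernatant and 23.3 ± 2.17 with rIFNβ, with log2 fold changes of -4.93 and -5.22. Itgam fell by 1.99 and by 2.17, and Itgb2 by 1.49 and by 1.56. Calr, calreticulin, which binds C1q at the cell surface, fell by 0.96 and by 1.05, and C1qbp and Lrp1 fell too. C5ar2, the second receptor of C5a, rose by 0.26 and 0.21. In the comparisons of supernatant with no supernatant, Cd93 was higher with eGFP supernatant than in control (0.35 ± 0.05, SE, adjusted p = 0.0117, edgeR), and Cd93 (0.33 ± 0.05, adjusted p = 0.0273) and Itgam (0.34 ± 0.04, adjusted p = 0.00777) were higher with Ifnb1eGFP supernatant than with rIFNβ. The call of Cd93 against control was lost without control library 1 or 3 or without library 1 or 2 of eGFP supernatant. Against rIFNβ, both calls were lost without library 3 of Ifnb1eGFP supernatant or without library 1 or 2 of rIFNβ, and that of Cd93 also without library 3 of rIFNβ. No other listed gene passed there.

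**Figure D5:**
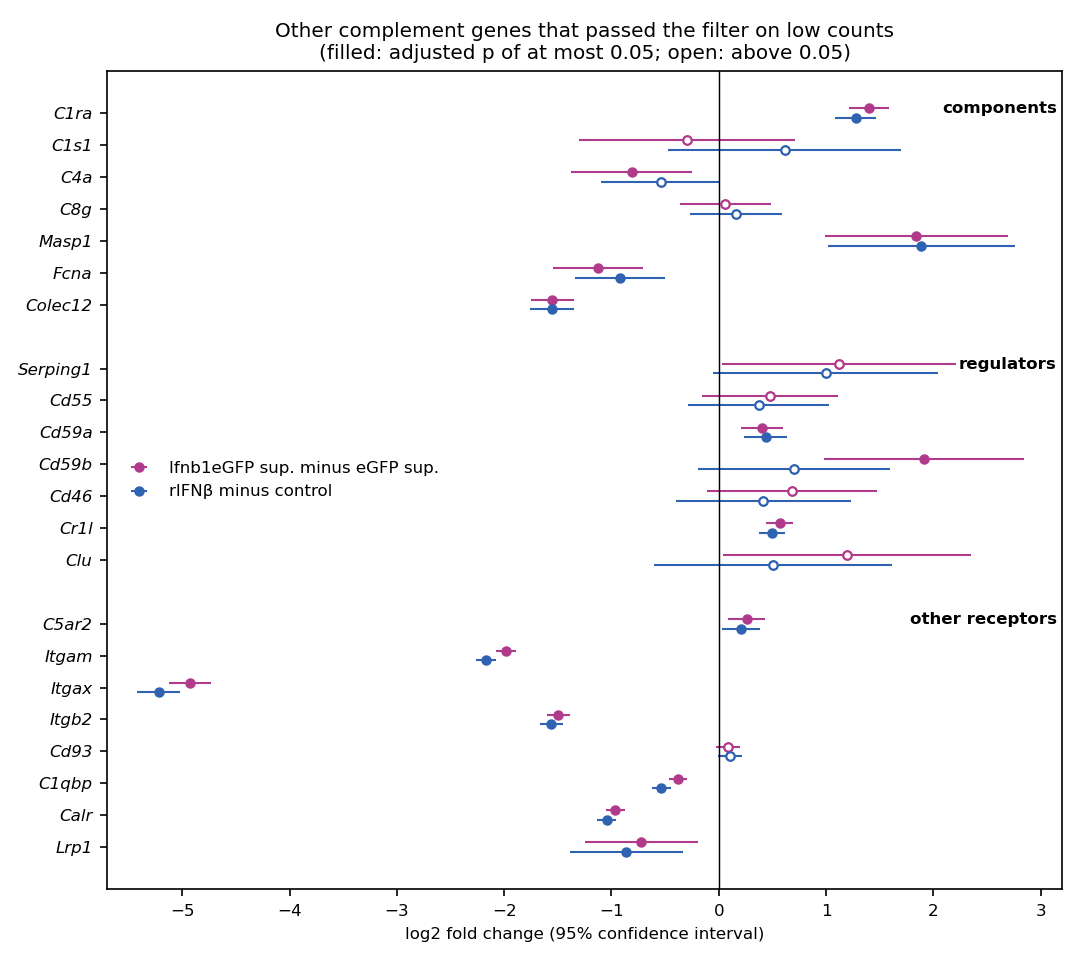
Log2 fold changes with 95% confidence intervals of 22 other complement genes tested, by role, in the comparisons of IFNβ with no IFNβ. Filled points passed an adjusted p of at most 0.05 (edgeR), with Itgax (-4.93 and -5.22) farthest to the left and Masp1 (1.84 and 1.89) among those to the right.

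Likeness of pattern was measured as the root mean square difference of centered log2 CPM over the 12 libraries, among 12046 other genes with a mean of at least 1 CPM. The genes most like C1qa were Tgm2 (0.196), Xylt2 (0.212) and Zfp36l1 (0.240). Those most like C1qb were Gm19680 (0.111), Il4ra (0.116), the receptor chain of IL4, and Cela1 (0.126), and those most like C1qc were Bcl3 (0.148), Rab20 (0.152) and Jak3 (0.168). Between members, C1qb and C1qc differed by 0.115, and C1qa differed from them by 0.281 and 0.273. C4b was most like H2-Q4 (0.316), A530040E14Rik (0.340) and Gbp8 (0.355), and Cfb most like A530040E14Rik (0.276), Sp110-ps1 (0.301) and AW112010 (0.316). C2 was most like Ctnnd2 (0.307), H2-Q10 (0.318) and Gm11131 (0.417). Cfp was most like Ebi3 (0.0787), Plod1 (0.0954) and Lrrc25 (0.106), and C3 most like Usp11 (0.111), Tmem209 (0.132) and Bst1 (0.134). C3ar1 and C5ar1 were most like Mdfic (0.0418), Srgap2 (0.0420) and Lpin2 (0.0455), and Mcat (0.0529), Nrros (0.0544) and Atxn7l3 (0.0558), respectively. The measure grows with a gene's own spread, whose SD of log2 CPM over the libraries ran from 0.168 for C5ar1 to 2.54 for C4b, so it does not rank members against each other. The measure describes these libraries, in which most of the spread lies between cells with and without IFNβ.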

How the data were processed

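Total RNA (600 ng per library) of M2-like BMDM from female mice was sequenced as TruSeq Stranded Total RNA libraries. The authors quantified reads with RSEM 1.3.3 per the labels, and the deposited values are expected counts per Ensembl gene without normalization. The build is named as GRCm39 with mm10, which are names of different builds, and the annotation release and strand setting are not given in the sources used here. Positions are those of GRCm39 (GENCODE) and promoters those of RefSeq. For M-CSF culture and the supplier of rIFNβ, labels and methods differ.

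Expected counts were rounded to whole numbers (12% were not whole) in R 4.3.3. Low genes were removed by filterByExpr, and 1 quasi-likelihood model with TMM factors was fitted over 12 libraries in edgeR 4.0.16. Conditions were compared with Benjamini-Hochberg adjustment over all genes tested, and an adjusted p of at most 0.05 was called. The SE was the size of the log2 fold change divided by the square root of F. CPM used the TMM factors, and 2 was the prior count of log2 CPM. No exact permutation test of 3 libraries against 3 was run, since its smallest p is 0.1. C1q ratios were tested over all relabellings of IFNβ within each background. A 50-base word of a canonical transcript was called shared when another gene's transcripts held it. Scripts were tested on simulated data.

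Members and gene lists were chosen with earlier results of these data known. 1 gene of the lists is not reported here. The text names the 10 members, C4a and Gm20547, up to 4 genes per role and direction with the largest changes in each IFNβ comparison, and the 3 genes most like each member. C1s1, C8g, Serping1, Cd55, Cd46, Clu, Cd93, C1qbp, Lrp1, Nelfe and the genes near 0 were named after their values were seen. Libraries with the same replicate number deviated together for Ifnb1eGFP supernatant and rIFNβ (r of 0.167 to 0.246 in all 3 pairs), so the number was taken as a pairing there. Same-numbered libraries of other conditions deviated together as well, at 0.144 to 0.212 for eGFP supernatant and rIFNβ. The labels do not say what the number stands for. Alternatives were DESeq2 1.42.0, RLE factors, no filter, a replicate block, only the compared conditions, added counts of overlapping genes, other lengths and each library left out in turn.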

Additional observations from a re-analysis of the deposited data

How the results depend on the processing

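The 10 complement genes rose with rIFNβ under every alternative run that kept the threshold of 0.05, with 10 calls each time. In the supernatant comparison 9 or 10 rose, C5ar1 being the gene lost, and leaving out 1 library gave 9 to 10 calls. With the replicate number as a block, 10 and 10 rose, and 0 passed in each comparison of supernatant and in the interaction. For the comparisons other than Ifnb1eGFP supernatant against rIFNβ the number was not taken as a pairing. Same-numbered libraries nonetheless correlated at 0.0582 to 0.252 over all 18 pairs, and differently numbered ones at a mean of -0.074. All 12 of 12 libraries were closest to their own number. Whether the number pairs libraries across all conditions is thus not settled, and the main tests and the C1q relabellings did not use it. Leaving out 1 library gave 0 calls for eGFP supernatant against control, 0 for Ifnb1eGFP supernatant against rIFNβ, 0 for the interaction and 0 to 1 for the pooled supernatant. DESeq2 called 2 members for eGFP supernatant against control and 1 for the pooled supernatant. Under the study's thresholds, the other complement genes called fell from 15 to 1 (Itgax) in the supernatant comparison, from 13 to 2 (Itgam and Itgax) with rIFNβ, from 2 to 0 for Ifnb1eGFP supernatant against rIFNβ and from 1 to 0 for eGFP supernatant against control. In the latter comparison DESeq2 called 2 of them (Itgam and Cd93), the replicate block 2 (Colec12 and Cd93), and leaving out 1 library gave 0 to 1. Without 1 library, Ifnb1eGFP supernatant against rIFNβ gave 0 to 2. With the block, 18 were called in the supernatant comparison and 15 with rIFNβ. The share of all genes called with the block was not computed, so the counts with the block are a description only. Differences near 0 changed sign when 1 library was left out. For eGFP supernatant against control, Cfb ran from -0.44 to 0.0038 and C3 from -0.10 to 0.10. For Ifnb1eGFP supernatant against rIFNβ, C1qa ran from -0.16 to 0.34, C1qb from -0.10 to 0.19, C1qc from -0.34 to 0.17, C4b from -0.022 to 0.32, Cfb from -0.075 to 0.25 and C5ar1 from -0.079 to 0.11. The interaction of C3ar1 ran from -0.059 to 0.011. The cause was not tested. Fitting eGFP supernatant and control alone kept 8 of 10 members, since C2 and C4b were filtered out. For the other complement genes, DESeq2, RLE factors, leaving out libraries and each alternative in the comparisons of supernatant were chosen after seeing the data, as were the canonical lengths.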
